A study of Mus musculus with 16 samples.

Results

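Liver RNA from mice fed a control diet was compared between animals heterozygous for a null allele of Gli2, labelled Gli2_Het, and animals labelled Gli1_WT. The comparison used 8 of the 16 arrays of the series, 4 for each genotype, chosen by the diet label Control Diet and the genotype label. The other 8 arrays come from mice of the same genotypes on a high-fat diet, and both diets were given for 12 weeks. Each array is 1 adult animal, and the labels give neither the sex, the strain nor the exact age of the mice. The series text calls the unmutated animals wild type and speaks of Gli2 only, so the label Gli1_WT was read as wild type for Gli2. The labels do not say which part of Gli2 the null allele lacks, so the Gli2 signal cannot check the genotype labels. Below, the groups are called WT and Het, with the arrays numbered 1 to 4 within each.

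Gli2 is a transcription factor of the hedgehog pathway. A hedgehog ligand binds the receptor Ptch1, which then stops holding back the membrane protein Smo, and the Gli factors carry the signal to genes such as Gli1, Ptch1 and Hhip. In adult liver the pathway is known for low activity in hepatocytes and for responses in stellate cells, bile duct cells and sinusoidal endothelium during injury.

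The values were log2 signals on Affymetrix MoGene 1.0 ST arrays, with 1 probe set for each of 19938 genes. The second Het array had a narrower spread of values than the rest, with an interquartile range over all probe sets of 2.35 on the log2 scale against 2.64 to 2.80 in the other 15 arrays. Its correlation with the other arrays across genes lay between 0.961 and 0.979, while the other 15 correlated with each other at 0.991 to 0.998. On this array the median gene below the median level read 0.33 above the WT mean, and the median gene above it read 0.18 below. Results are therefore given with all 4 Het arrays and with the 3 others. Hepatocyte markers were among the brightest genes in every array, for example Alb, which encodes albumin, at 13.94 to 14.03 in WT and 13.83 to 13.98 in Het.

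No gene passed the test between the genotypes. In a limma fit of all 16 arrays, 0 of 19938 genes reached an adjusted p under 0.05 (0%), and 3135 had an unadjusted p under 0.05, 1794 of them higher and 1341 lower in Het. The smallest adjusted p was 0.279. Without the second Het array the count was again 0 of 19938 (0%), with 1602 genes at an unadjusted p under 0.05 and a smallest adjusted p of 0.247. The count rested on single arrays: without the fourth Het array limma called 18 genes, 11 higher and 7 lower in Het, among them Rsad2, Anln, Usp31, Abhd13 and Ctse. When the 7 control-diet arrays other than the second Het array were fitted alone, limma called 1 gene, Fabp7, with an adjusted p of 0.0144, and the smallest adjusted p over the settings tried without that array ranged from 2.66e-05 to 0.347. Every gene below is therefore described by its values, and a difference on the log2 scale of Het minus WT is given with its standard error. That error is the moderated one of the limma fit, in which the 4 groups of both diets share 1 spread for each gene. It is therefore not the error that the control-diet arrays alone would give.

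Genes whose 4 Het arrays all lay above or all lay below the 4 WT arrays were counted as well. There were 803 such genes higher in Het (4.03% of all genes) and 418 lower (2.1%). With 3 Het arrays the counts were 1027 higher (5.15%) and 593 lower (2.97%). The balance between the directions moved with the normalization: repeating quantile normalization gave 502 higher and 539 lower, and cyclic loess gave 525 higher and 602 lower. The median difference over all genes was 0.04 with 4 Het arrays and 0.01 with 3. The sign of the difference was the same with and without the second Het array for 15415 genes, 77.3% of the total.

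**Figure D1:**
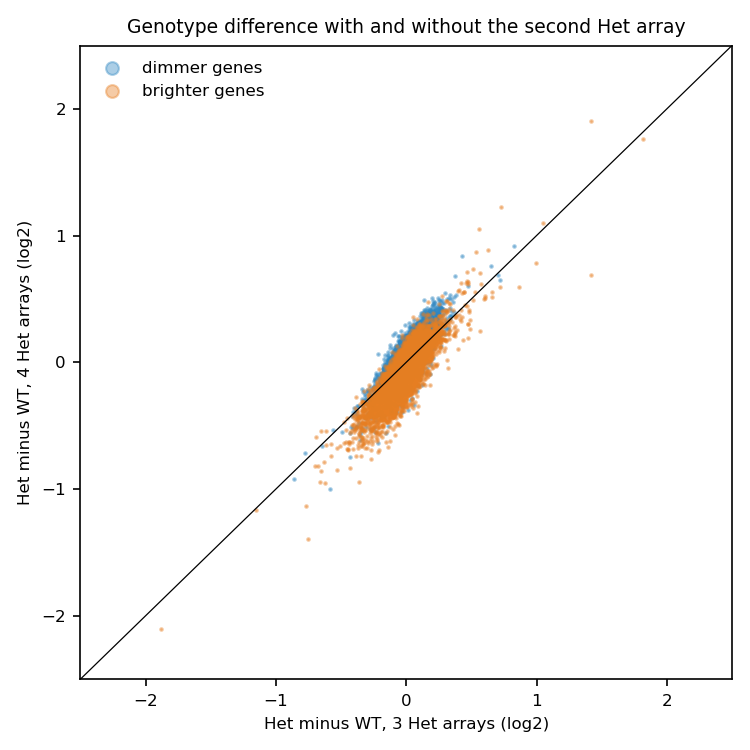
Difference between Het and WT on control diet for each of 19938 genes on the log2 scale, computed with 3 Het arrays (horizontal axis) and with all 4 (vertical axis), with the line of equality. Genes below the median level had a median difference of 0.10 with 4 Het arrays and 0.02 with 3, and brighter genes had -0.04 with 4.

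The Gli factors themselves differed little. Gli2 read 7.58, 7.57, 7.54 and 7.58 in WT and 7.57, 8.14, 7.50 and 7.59 in Het. The second Het array stood alone above the rest, and without it the difference was -0.01 ± 0.05 (SE), against 0.13 ± 0.10 with it. Gli1, the Gli factor whose own transcription follows pathway activity, read 8.41, 8.42, 8.44 and 8.36 in WT and 8.41, 8.63, 8.32 and 8.41 in Het. Its difference was 0.04 ± 0.06 with 4 Het arrays and -0.03 ± 0.05 with 3, so that the second Het array decided the sign. Gli3, the family member that mostly acts as a repressor, differed by 0.11 ± 0.08 and 0.06 ± 0.07, with overlapping arrays.

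Among receptors and regulators, Ptch1 read 10.46, 10.31, 10.52 and 10.32 in WT and 10.36, 9.97, 10.35 and 10.28 in Het, and the groups overlapped. Its difference was -0.16 ± 0.09, or -0.07 ± 0.08 without the second Het array. Smo, the signal transducer, differed by 0.07 ± 0.08 and 0.10 ± 0.07. Sufu, which holds the Gli factors in the cytoplasm, differed by -0.12 ± 0.08 and -0.03 ± 0.06. Hhip, a membrane protein that binds hedgehog ligands and is itself a pathway target, read 8.05, 8.28, 8.38 and 8.18 in WT and 7.86, 7.46, 8.06 and 7.95 in Het. The third Het array lay just above the lowest WT array, and the other Het arrays lay below all WT arrays. The Hhip difference was -0.39 ± 0.11 and -0.27 ± 0.09, with a limma adjusted p of 0.279 and 0.463.

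Of the 33 measured hedgehog pathway genes, 0 were called, 19 were higher and 14 lower in value with all Het arrays, and 12 were higher and 21 lower with 3. Their median difference was 0.01 and -0.01, and it turned negative under cyclic loess too, at -0.02. In 3 of the 33 (9.09%, against 4.03% of all genes) the arrays did not overlap and Het was higher: Cdon, a co-receptor for hedgehog ligands, Stk36, a kinase of the pathway, and Scube2, which helps release the ligand. Cdon read 5.94 to 6.05 in WT and 6.18, 6.80, 6.24 and 6.09 in Het, a difference of 0.33 ± 0.11, or 0.17 ± 0.06 without the second Het array. It was dim, below the control-diet array medians over all probe sets of 7.99 to 8.14. Kif3a, a motor protein of the primary cilium, was the 1 pathway gene whose Het arrays all lay below WT, a share (3.03%) near the 2.1% of all genes. Scube2 and Kif3a were named after their values were seen. Among 18 hedgehog-responsive targets 0 were called, and 2 (11.1%, against 2.1% of all genes), Foxf1 and Foxa2, had Het arrays all below WT. Foxf1, a forkhead factor of mesenchymal cells, read 10.02, 9.81, 9.90 and 9.88 in WT and 9.42, 9.67, 9.77 and 9.66 in Het, a difference of -0.27 ± 0.08 that stayed at -0.28 ± 0.08 with 3 Het arrays. Foxm1, a forkhead factor of dividing cells, differed by -0.06 ± 0.10 and -0.17 ± 0.07.

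**Figure D2:**
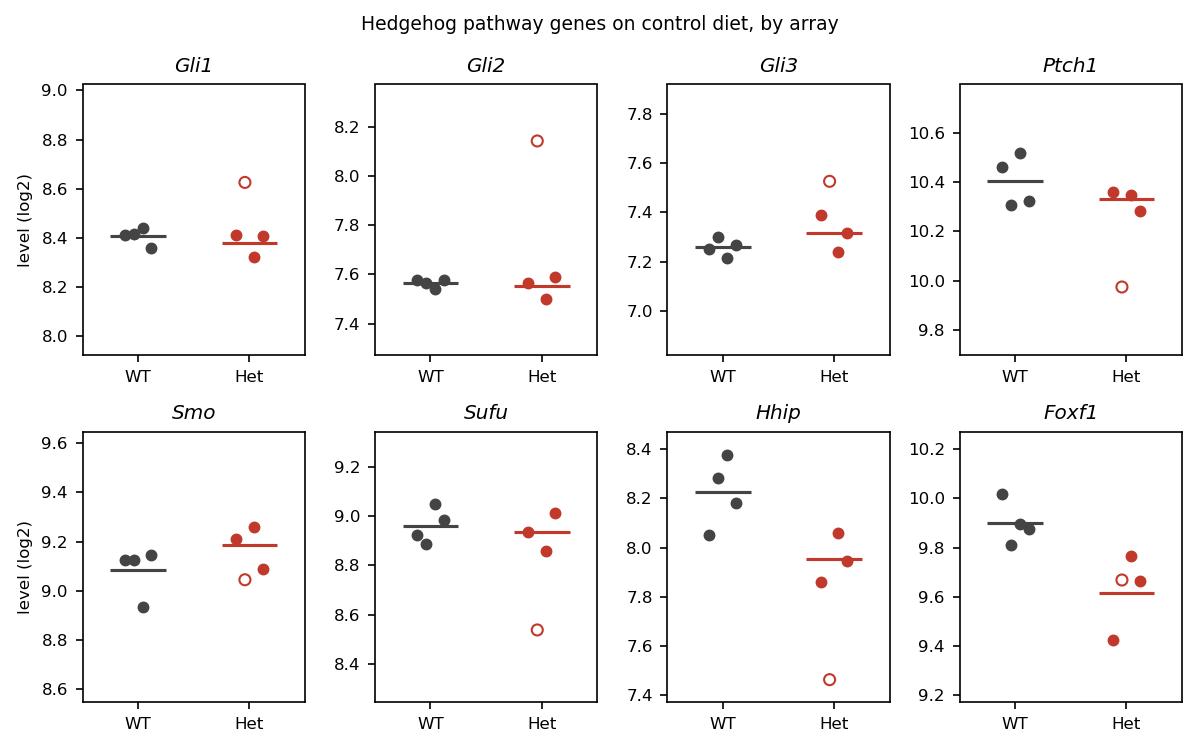
Levels (log2) of 8 hedgehog genes in each control-diet array, WT in grey and Het in red, with the second Het array as an open circle; lines mark the mean of the 4 WT arrays and of the 3 other Het arrays, and every panel spans the same log2 range. In Gli2 the open circle stands at 8.14 while the other 7 arrays lie between 7.50 and 7.59, and in Foxf1 all Het arrays lie below the WT arrays.

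Among the named genes whose arrays did not overlap, Sult2a3, Cyp3a16 and Cyp2c55, which encode enzymes of drug and steroid metabolism, had the largest differences without the second Het array, and all were lower in Het. Sult2a3, a sulfotransferase of the family that acts on steroids and bile acids, read 9.32, 10.06, 11.05 and 9.43 in WT and 7.76, 7.17, 8.99 and 7.51 in Het. All Het arrays lay below all WT arrays, though the WT arrays spanned more than 1 log2 unit. The difference was -2.11 ± 0.41, and -1.88 ± 0.42 without the second Het array, with a limma adjusted p of 0.279 and 0.326. Cyp3a16, a cytochrome P450, read 11.61, 11.43, 10.97 and 10.33 in WT and 9.38, 9.87, 10.27 and 10.14 in Het. The highest Het array and the lowest WT array nearly met, and the difference was -1.17 ± 0.31, or -1.15 ± 0.34 with 3 Het arrays. Cyp2c55 differed by -0.92 ± 0.21 and -0.86 ± 0.23. Sult2a3, Cyp3a16 and Cyp2c55 belong to families of closely similar genes, so their probe sets may also read relatives.

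Pdk4, the kinase that shuts pyruvate out of oxidation in the fasted liver, read 9.37, 9.63, 9.77 and 10.36 in WT and 9.13, 8.61, 8.84 and 9.27 in Het. The groups did not overlap, and the difference was -0.82 ± 0.20, or -0.70 ± 0.20 with 3 Het arrays. Fabp7, a fatty acid binding protein best known from brain, read 9.96, 9.95, 9.98 and 10.11 in WT and 9.29, 8.21, 9.36 and 9.36 in Het. The second Het array lay more than 1 log2 unit below the other Het arrays, which were themselves below WT. The Fabp7 difference was -0.94 ± 0.21 with it and -0.66 ± 0.13 without it. Rnf186, a ubiquitin ligase, differed by -0.59 ± 0.14 and -0.70 ± 0.13, and Fbf1, a protein of the ciliary base, by -0.54 ± 0.11 and -0.61 ± 0.11.

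The other genes lowest by p were H2-K2, Emp3, Csrp1, Cnr2 and Rnf24, together with Prc1 and Anln, which act in cytokinesis. Their differences without the second Het array lay between -0.57 and -0.28. Cnr2, the cannabinoid receptor of immune cells, had WT arrays at 7.82 to 7.91 and Het arrays at 7.53, 7.40, 7.63 and 7.63. Csrp1, a cytoskeletal LIM protein, read 10.39 to 10.41 in WT and 9.98, 10.26, 10.11 and 10.22 in Het. For both genes the WT arrays lay within 0.1 of each other, and all Het arrays lay below them.

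Of the genes higher in Het, Zfp9, a zinc finger protein, read 6.77, 6.46, 6.51 and 6.67 in WT and 6.92, 7.24, 7.71 and 7.29 in Het. The difference was 0.69 ± 0.17, or 0.71 ± 0.18 with 3 Het arrays. Usp31, a deubiquitinating enzyme, differed by 0.71 ± 0.15 and 0.57 ± 0.14, and Wfdc21, a small secreted protein with a whey acidic protein domain, by 0.64 ± 0.14 and 0.47 ± 0.10. In Wfdc21 the second Het array was the highest of all at 12.19, with the other Het arrays at 11.39 to 11.75 and WT at 10.82 to 11.19. Pfkfb3, which makes the activator of the glycolytic enzyme phosphofructokinase, read 8.78, 8.89, 8.69 and 8.89 in WT and 9.21, 9.10, 9.47 and 9.57 in Het, a difference of 0.53 ± 0.19 and 0.61 ± 0.20.

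Fam214a had the smallest p among the named genes higher in Het. It read 11.03, 10.83, 10.87 and 10.59 in WT and 11.22, 11.21, 11.32 and 11.21 in Het, so that all Het arrays lay above WT and close to each other. Its difference was 0.41 ± 0.08 and 0.42 ± 0.08, with a limma adjusted p of 0.279 and 0.247. Ube2g2, a ubiquitin-conjugating enzyme of protein quality control in the endoplasmic reticulum, differed by 0.41 ± 0.08 and 0.36 ± 0.08. The rest were smaller: Serpinb3d, Secisbp2, Aen, Abhd13, Hinfp, Prdm15, Mpp4 and Bcl2l1, the gene of the survival protein Bcl-xL, lay between 0.23 and 0.33 without the second Het array. In all of these genes the groups did not overlap, which the choice of the genes required. Serpinb3d was the dimmest of them, at 5.05 to 5.54 on control diet, below the array medians over all probe sets of 7.99 to 8.14.

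**Figure D3:**
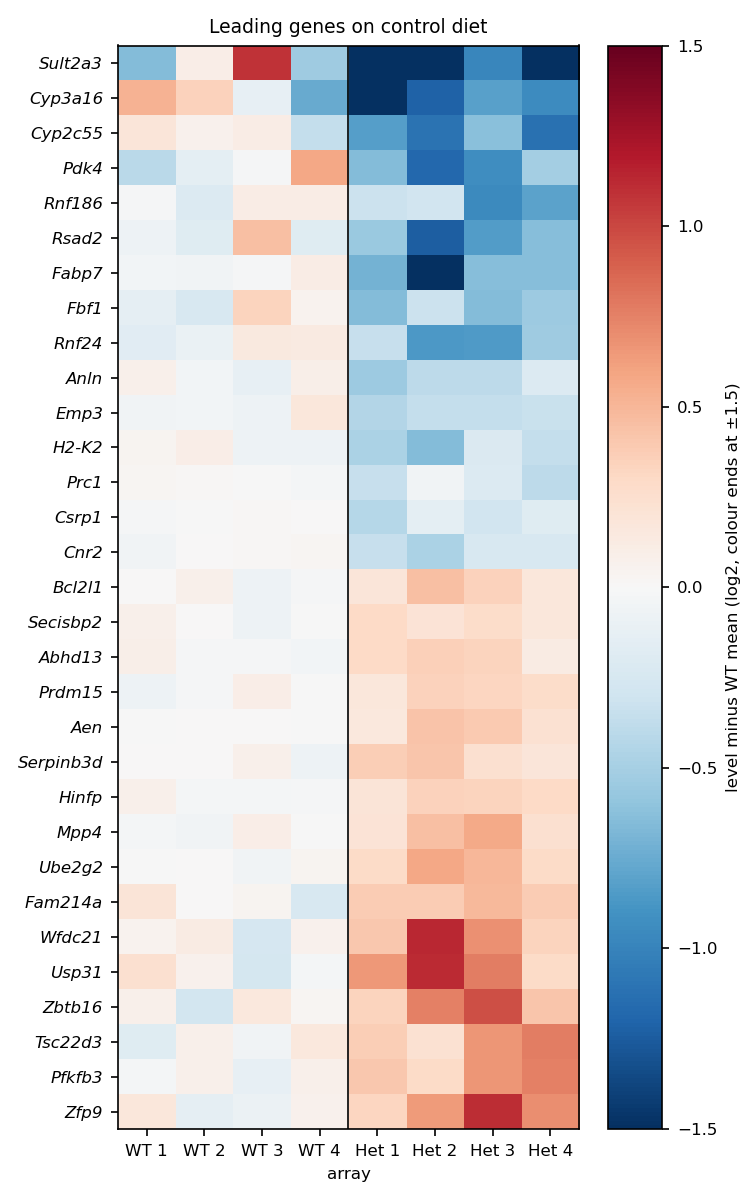
Level of the genes with the smallest p or the largest difference in each of the 8 control-diet arrays, as the log2 level minus the mean of the 4 WT arrays; blue is lower and red higher, and colours end at 1.5 in either direction. Genes are ordered by their difference without the second Het array, from Sult2a3 at -1.88 to Zfp9 at 0.71.

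Several groups of genes were shifted in the same direction in value. The 3 lists farthest below the median of all genes without the second Het array were sinusoidal endothelial genes, class II antigen presentation genes and cell cycle genes. These and the other lists with the farthest medians were taken up because of these same values. The shares of their members given here and below are therefore a description only, and members of a list are not independent replicates. Of 58 cell cycle and replication genes, 0 were called and 47 were lower in value with 3 Het arrays (44 with 4), with a median difference of -0.12 (-0.14). An unadjusted p under 0.05 with a lower value was seen in 22 of the 58 (37.9%), against 3.56% of all genes, and 0 of 58 had one with a higher value, against 4.48%. Mki67, the proliferation marker, read 8.23, 7.97, 7.67 and 8.21 in WT and 7.17, 7.31, 7.34 and 7.62 in Het, a difference of -0.66 ± 0.14, or -0.64 ± 0.15. Anln read 6.88, 6.75, 6.67 and 6.89 in WT and 6.25, 6.40, 6.40 and 6.59 in Het. Prc1 read 6.95 to 7.01 in WT and 6.63, 6.93, 6.77 and 6.59 in Het. In all 3 genes the Het arrays lay below WT, and Anln and Prc1 were dim, below the control-diet array medians over all probe sets of 7.99 to 8.14. The mean over the list, relative to WT, was -0.25, -0.18, -0.20 and -0.04 in the Het arrays and -0.11 to 0.08 in the WT arrays, so that the fourth Het array lay within the WT range.

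Markers of the cells that line and patrol the sinusoids were lower in value as well, and in whole liver tissue fewer cells of a type and less RNA per cell cannot be told apart. Of 36 sinusoidal endothelial genes, 34 were lower with 3 Het arrays and 32 with 4, with medians of -0.16 and -0.15. An unadjusted p under 0.05 was seen in 9 of the 36 on the lower side (25%, against 3.56% of all genes). Cd36, a scavenger receptor that takes up fatty acids, read 10.91, 10.80, 11.14 and 11.03 in WT and 10.21, 9.16, 10.68 and 10.44 in Het. The difference was -0.85 ± 0.26 and, without the second Het array, -0.53 ± 0.20. Cdh5, the endothelial cadherin, read 10.53 to 10.61 in WT and 10.13, 9.82, 10.51 and 10.42 in Het. Fcgr2b, an inhibitory antibody receptor of these cells, differed by -0.43 ± 0.12 and -0.33 ± 0.12 with overlapping arrays. The list mean relative to WT was -0.31, -0.36, -0.02 and -0.13 in the Het arrays, and the third Het array lay inside the WT range of -0.06 to 0.06.

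Of 36 macrophage and Kupffer cell genes, 28 were lower with 3 Het arrays and 24 with 4, with medians of -0.12 and -0.16. The list mean relative to WT was -0.16, -0.29, -0.01 and -0.22 in the Het arrays, the third inside the WT range of -0.06 to 0.05. Cd68, a lysosomal protein of macrophages, read 10.10, 10.01, 9.95 and 10.17 in WT and 9.60, 9.55, 9.89 and 9.68 in Het, a difference of -0.38 ± 0.11 and -0.33 ± 0.11. Folr2, a folate receptor of resident macrophages, differed by -0.37 ± 0.11 and -0.32 ± 0.11, and Tyrobp, a signalling adaptor, by -0.39 ± 0.12 and -0.27 ± 0.10. The Kupffer cell marker Clec4f differed by 0.01 with all Het arrays, while Vsig4 differed by -0.65 and -0.37. Of 11 class II antigen presentation genes 9 were lower with 3 Het arrays, with a median of -0.14. H2-DMa, which helps load peptides, differed by -0.37 ± 0.14 and -0.33 ± 0.15, while H2-Ob and Cd86 differed by -0.14 ± 0.09 and -0.21 ± 0.13 with 3 Het arrays.

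Of 26 B and T lymphocyte genes, 18 were lower with 3 Het arrays but 14 with all 4, where the median was -0.02 against -0.09. The second Het array read the list 0.11 above WT on average, while the other Het arrays lay 0.08 to 0.11 below. Cd79a, of the B cell receptor, differed by -0.29 ± 0.10 and -0.34 ± 0.10, and Ms4a1 by -0.21 ± 0.12 and -0.34 ± 0.10. Both were dim on control diet: Cd79a read 6.53 to 7.21 and Ms4a1 6.20 to 6.82, below the array medians over all probe sets of 7.99 to 8.14. Cd2, of T cells, differed by -0.09 ± 0.11 and -0.23 ± 0.07. Of 38 stellate cell and extracellular matrix genes, 25 were lower with 3 Het arrays and 21 with 4. The list mean was -0.14, -0.11, -0.04 and -0.03 in the Het arrays, the third and the fourth inside the WT range of -0.05 to 0.05. Dcn, a matrix proteoglycan, read 12.79 to 12.88 in WT and 12.34, 11.97, 12.69 and 12.76 in Het, a difference of -0.41 ± 0.12, or -0.25 ± 0.08. Timp3, an inhibitor of matrix proteases, differed by -0.54 ± 0.15 and -0.43 ± 0.15, and Tgfb1 by -0.21 ± 0.07 and -0.18 ± 0.07. Of 16 hepatocyte identity genes, 15 were higher with 3 Het arrays and 5 with 4, and 0 had an unadjusted p under 0.05 in either fit. The groups did not overlap and Het was higher in 2 of 16 with 3 Het arrays (12.5%, against 5.15% of all genes) and in 0 with 4 (against 4.03%). Their median was -0.01 with 4 Het arrays, 0.03 with 3 and 0.10 under cyclic loess.

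The lists of fatty acid oxidation, xenobiotic conjugation and transport, and female-biased genes were lower in value too, with medians lower with the second Het array than without it. In each, 2 of the 4 Het arrays had a list mean inside the WT range. Of 40 fatty acid oxidation and Ppara target genes, 33 were lower with 3 Het arrays and 34 with 4, with medians of -0.11 and -0.16. The list mean relative to WT was -0.00, -0.45, -0.35 and -0.15 in the Het arrays and -0.17 to 0.09 in WT. Acot2, a mitochondrial thioesterase, read 11.02, 10.26, 10.63 and 11.22 in WT and 10.36, 9.55, 9.68 and 10.39 in Het, with an overlap, and differed by -0.78 ± 0.20 and -0.63 ± 0.20. Cyp4a10, a fatty acid hydroxylase, differed by -0.48 ± 0.13 and -0.34 ± 0.11. Of 42 conjugation and transport genes, 32 were lower with 3 Het arrays and 38 with 4, and the median went from -0.08 to -0.21. The list mean was -0.23, -0.61, -0.07 and -0.06 in the Het arrays and -0.13 to 0.15 in WT. Gstm6, a glutathione transferase, differed by -0.47 ± 0.12 and -0.34 ± 0.09, and Ahr, the aryl hydrocarbon receptor, was higher by 0.24 ± 0.09 and 0.27 ± 0.09. Of 26 female-biased liver genes 18 were lower with 3 Het arrays and 22 with 4. The list mean was -0.29, -0.60, -0.13 and -0.11 in the Het arrays and -0.15 to 0.12 in WT. Cyp17a1, a steroid hydroxylase, read 13.02 to 13.28 in WT and 12.88, 12.65, 12.82 and 12.52 in Het, a difference of -0.43 ± 0.11 and -0.41 ± 0.12.

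Glucocorticoid-responsive genes were the list farthest on the other side. Of 18, 15 were higher in value with 3 Het arrays and 11 with 4, with medians of 0.10 and 0.07, and 6 of the 18 (33.3%) had an unadjusted p under 0.05 on the higher side with 3 Het arrays, against 4.48% of all genes. The list mean relative to WT was 0.16, -0.01, 0.18 and 0.25 in the Het arrays, and the second Het array lay inside the WT range of -0.07 to 0.07. Zbtb16, a zinc finger factor induced by glucocorticoids, read 10.87, 10.51, 10.94 and 10.82 in WT and 11.12, 11.54, 11.76 and 11.20 in Het. Tsc22d3, which encodes the glucocorticoid-induced leucine zipper, read 10.46, 10.72, 10.59 and 10.80 in WT and 11.01, 10.87, 11.31 and 11.41 in Het. Fkbp5, a chaperone of the glucocorticoid receptor, read 10.23, 9.97, 10.18 and 10.29 in WT and 10.40, 10.53, 10.67 and 10.83 in Het. All 3 had Het arrays above all WT arrays. Their differences were 0.62 ± 0.22, 0.51 ± 0.17 and 0.44 ± 0.14 with 4 Het arrays and 0.58 ± 0.23, 0.60 ± 0.17 and 0.47 ± 0.15 with 3. 

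**Figure D4:**
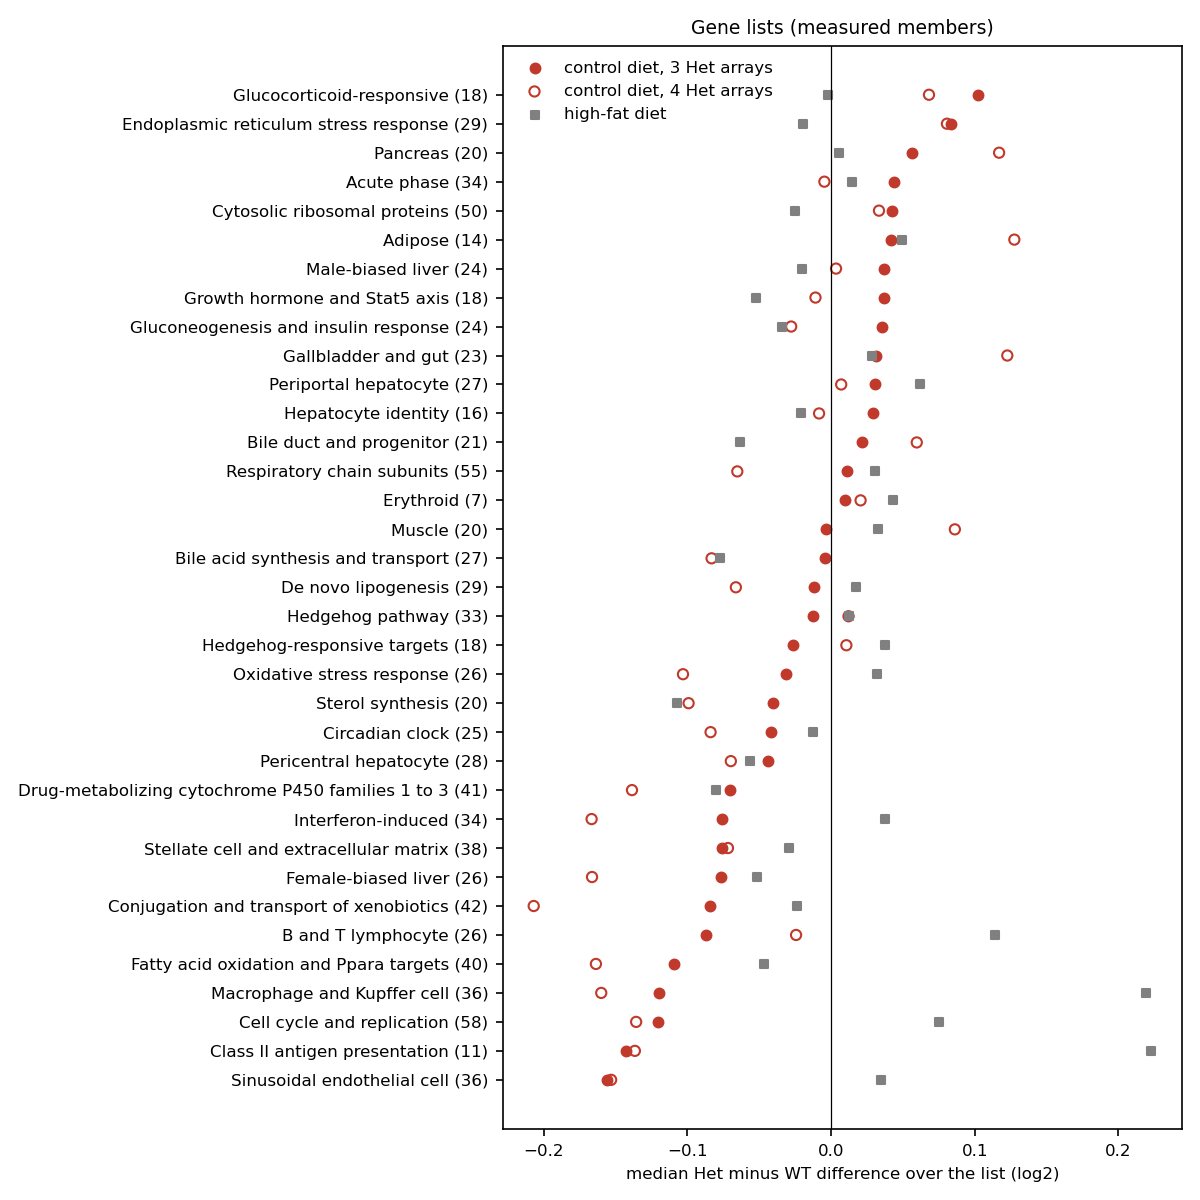
Median difference between Het and WT (log2) over each of 35 gene lists, with the number of measured members, for control diet with 3 Het arrays (filled red), with all 4 (open red) and for high-fat diet (grey squares). The lists run from sinusoidal endothelial genes at -0.16 to glucocorticoid-responsive genes at 0.10 on control diet without the second Het array.

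Interferon-induced genes are shown with promoter sequence because Rsad2, an antiviral enzyme of this group, was among the genes lowest by p and several relatives lay below WT with it. Of 34 measured, 25 were lower in value with 3 Het arrays and 28 with 4, and the median went from -0.08 to -0.17. The groups did not overlap and Het was lower in 7 of 34 with 4 Het arrays (20.6%, against 2.1% of all genes) and in 9 of 34 with 3 (26.5%, against 2.97%). The list lay outside the 10 with the farthest medians and was taken up because of these same values, so its shares are a description only. Rsad2 read 8.73, 8.62, 9.26 and 8.62 in WT and 8.26, 7.58, 7.97 and 8.17 in Het, a difference of -0.82 ± 0.15, or -0.68 ± 0.13 without the second Het array. Ifit3 read 10.63, 10.55, 10.55 and 10.38 in WT and 10.03, 9.30, 10.01 and 9.83 in Het, with no overlap and a difference of -0.74 ± 0.18, or -0.57 ± 0.16. Ifit1, its relative, read 9.64, 9.62, 9.60 and 9.31 in WT and 9.36, 8.12, 8.82 and 9.09 in Het, with 1 Het array inside the WT range. Stat2, a factor that carries the interferon signal, read 10.36 to 10.54 in WT and 10.38 to 10.59 in Het and differed by 0.05 ± 0.07. Ifit3, Ifit1 and Stat2 were chosen for their promoters after their values were seen.

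The interferon response motif was searched as GAAANNGAAA on both strands of the window from 250 bases before to 50 after the gene start (RefSeq, build GRCm38.p6). It was present in 13 of 24 interferon-induced genes with a window (54.2%) and in 607 of 15614 measured genes with one (3.89%). All 4 genes described above hold the motif, Stat2 included, so they cannot show whether its presence went with a difference. Stretches of these promoters are printed in the direction of transcription with the matches in capitals. Rsad2 lies at chr12:26456533-26456612 on the minus strand, Ifit3 at chr19:34583333-34583446, Ifit1 at chr19:34640745-34640843 and Stat2 at chr10:128270248-128270315, the last 3 on the plus strand.
Rsad2: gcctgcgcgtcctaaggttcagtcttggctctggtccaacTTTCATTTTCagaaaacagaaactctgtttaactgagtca
Ifit3: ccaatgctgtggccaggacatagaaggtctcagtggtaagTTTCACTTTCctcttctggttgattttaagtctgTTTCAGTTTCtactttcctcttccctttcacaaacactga
Ifit1: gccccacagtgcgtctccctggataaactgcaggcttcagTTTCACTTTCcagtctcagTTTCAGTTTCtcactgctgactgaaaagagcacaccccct
Stat2: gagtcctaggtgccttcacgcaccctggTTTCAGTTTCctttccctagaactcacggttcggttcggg

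The Gli motif, searched as GACCACCCA on both strands, was found in 0 of 26 hedgehog pathway genes with a window and in 0 of 11 hedgehog-responsive targets, against 33 of 15614 measured genes (0.211%). These letters are thus absent from those windows, which says nothing of Gli binding elsewhere.

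The genotype difference on the high-fat diet comes from other animals. There limma called 1 gene of 19938 (0.00502%), Ctse, which encodes the aspartic protease cathepsin E and which rose in Het by 3.19 ± 0.41 with an adjusted p of 0.00959. The call was lost when the first, the third or the fourth WT array or the third or the fourth Het array on high-fat diet was left out, where the difference stayed between 2.99 and 3.20. On control diet Ctse read 7.30, 7.60, 7.38 and 7.58 in WT and 10.27, 9.06, 10.03 and 7.53 in Het. The fourth Het array lay at the WT level and the other Het arrays more than 1 log2 unit above it. The Ctse difference on control diet was 1.76 ± 0.41, with a limma adjusted p of 0.279, and it reached 2.33 with an adjusted p of 0.00143 when the fourth Het array was left out. Across the settings tried with all arrays or with 1 array left out, the adjusted p of Ctse on control diet ran from 0.00143 to 0.577, the last where the control-diet arrays were fitted alone. Without both the second and the fourth Het array, limma called Ctse as well. The other genes with the smallest p on high-fat diet missed the threshold there. Of these, Ces3b, a carboxylesterase, differed by -0.55 on high-fat diet and by -0.15 on control diet, and its Het arrays lay below WT on both diets. Sik1, a kinase that restrains glucose production, differed by 0.93 on high-fat diet and -0.25 on control diet, and Nr4a1, an early-response nuclear receptor, by 0.47 and 0.01. Rgs16, a regulator of G protein signalling with a daily rhythm, differed by -0.91 and 0.05.

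Whether the genotype difference depended on diet was tested as an interaction, and limma called 0 of 19938 genes (0%), with 1621 at an unadjusted p under 0.05 and a smallest adjusted p of 0.24. Without the second Het array the count was 0 again, with 1709 at an unadjusted p under 0.05. Across genes the differences on the 2 diets had a Pearson correlation of 0.04 and a Spearman correlation of 0.05, and of -0.04 and -0.05 without the second Het array, where genes are not independent replicates. Fkbp5 was higher in Het by 0.44 on control diet and differed by -0.49 on high-fat diet, and Zbtb16 by 0.62 and -0.76. Sult2a3 differed by -2.11 on control diet and by 0.63 on high-fat diet, an interaction of -2.74 ± 0.58 with an adjusted p of 0.24. The genes with the smallest interaction p were Sik1, Emp3, Cd72, Ms4a8a and 4930444G20Rik, at the same adjusted p. The median over macrophage and Kupffer cell genes was -0.16 on control diet and 0.22 on high-fat diet, and 0 members were called for the interaction.

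**Figure D5:**
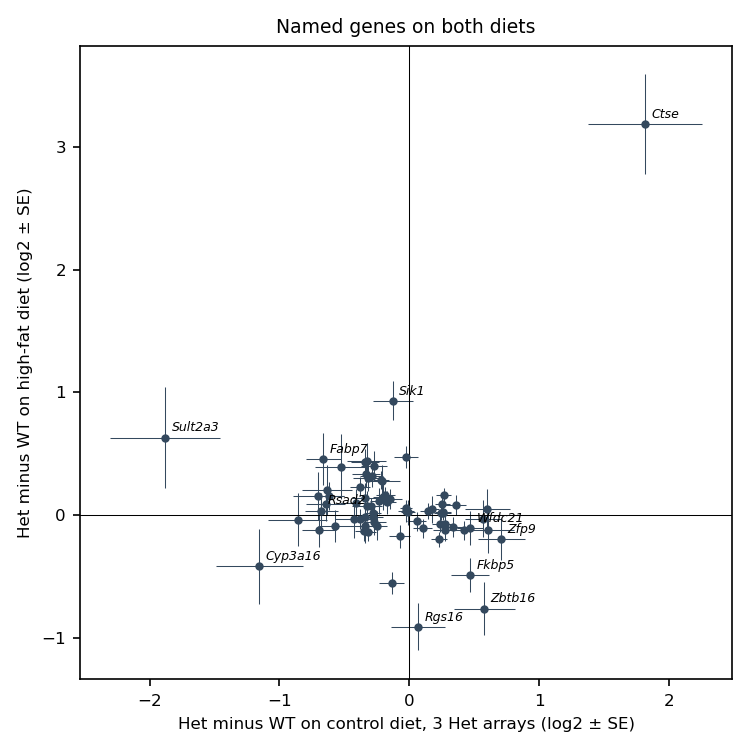
Difference between Het and WT for the 72 named genes on control diet without the second Het array (horizontal axis) and on high-fat diet (vertical axis), in log2 units with standard errors. Ctse lies at 1.82 and 3.19, while Sult2a3 lies at -1.88 and 0.63.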

How the data were processed

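Liver RNA of 16 mice was measured on 16 arrays, and the deposited values are log2 signals that the authors computed by RMA, for which the submitters' processing notes name Affymetrix Expression Console. RMA corrects background, normalizes by quantiles and summarises probes, so it forces the arrays towards a common distribution. The small number of arrays limits the precision. Probe sets with 1 gene symbol (21789 of 35556) were kept, 1621 with several and 12146 with none were left out, and the probe set with the highest mean over the 16 arrays stood for each of 19938 genes, 19856 of which matched RefSeq. limma 3.58.1 in R 4.3.3 fitted a mean for each of the 4 groups and moderated the spread over genes (lmFit and eBayes), with Benjamini-Hochberg adjustment over all genes and a threshold of 0.05, two-sided. A gene was named if it was a central hedgehog gene, was among the 12 smallest p or the 6 largest differences each way without the second Het array among genes without overlap of the groups, was among the 3 smallest p of a list discussed, or was among the 5 smallest p of the high-fat contrast or the interaction. For the smallest p and the largest differences on control diet, the sign also had to be the same with all Het arrays. Symbols holding Rik, or starting with LOC, Mir, Snor, Olfr, Vmn or Gm and digits, were left out of that choice. The 10 lists with the median farthest from that of all genes were discussed, and the hedgehog lists with them. The interferon, endoplasmic reticulum stress, sterol synthesis and hepatocyte identity lists were described outside that rule and supplied no named genes under it. The members and the 35 lists were chosen with earlier results of these data known. No batch is given in the labels; the sample titles hold a number of unstated meaning that WT and Het arrays on control diet never share, so it cannot be told apart from genotype there, and the replicate numbers only name the arrays. The fit was tested on simulated data. The alternatives were other normalizations, array weights, other probe set rules, a filter on low levels, the number in the sample titles as a random block and leaving out each array.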

Additional observations from a re-analysis of the deposited data

Results flagged for a closer look

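In 12 of 144 tests of a group of 4 arrays, over the 72 named genes and the 2 control-diet groups, 1 array lay far from the other 3. The measure is the gap to the nearest array divided by the range of the group, set against the published limit for 4 values, which chance passes about 1 time in 20. In Het the second array stood apart for Gli2, high at 8.14 with a gap of 0.86 of the range, and for Fabp7, low at 8.21 with 0.941. The third Het array was high for Fam214a at 11.32 (0.941) and for Rgs16 at 13.28 (0.897). The first Het array was low for 4930444G20Rik at 8.28 (0.864). In WT the fourth array was high for Cdh5 at 10.61 (0.939), for Emp3 at 9.64 (0.85) and for Fabp7 at 10.11 (0.83). The first WT array was high for Abhd13 at 9.39 (0.842) and for Hinfp at 8.59 (0.869). The third WT array was high for Rsad2 at 9.26 (0.835) and low for Smo at 8.93 (0.919).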

How the results depend on the processing

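With all arrays, the count of 0 genes called by limma between the genotypes on control diet became 2 when the title number was taken as a block, and 0 to 18 when 1 array was left out, the 18 without the fourth Het array. The block rested on a negative correlation of -0.37 within numbers, and the 2 genes were Fam214a and H2-K2. Without the second Het array the count of 0 became 1 (Fabp7) with the control-diet arrays alone, and 0 to 4 when 1 more array was left out, with 1 (Rnf186) without the first Het array, 4 without the fourth (Ctse, Lrig1, Ly96 and Snora33) and 1 (Fabp7) without the fourth WT array on high-fat diet. The count on high-fat diet was 1 and became 3 with array weights, 3 with the block, 0 with all probe sets and 0 to 2 when 1 array was left out. The interaction count of 0 became 1 with array weights (Fabp7) and 2 with the block (Emp3 and Ms4a8a), and stayed 0 when any 1 array was left out. Genes without overlap numbered 502 higher with repeated quantile normalization and 525 with cyclic loess, of 19938 in each. Of all 35556 probe sets, 1400 were higher and 690 lower, and of 14953 genes above the lower quartile of level, 489 were higher. The number tested differed in these settings, so their counts cannot be set directly against those over 19938 genes. Leaving out 1 array gave 1027 to 1932 higher and 593 to 1366 lower, and groups of 3 overlap less easily than groups of 4. The difference kept its sign for 68 of 72 named genes under every alternative tried. Those with the smallest p or the largest difference on control diet had been chosen without overlap, so leaving out 1 array could not reverse them. The 4 genes with a reversed sign lay near 0. Gli1 was -0.0275 with array weights, -0.0125 with cyclic loess and -0.0261 to 0.075 with 1 array left out. Gli2 was -0.0126 with array weights and -0.0126 to 0.2012 with 1 array left out. Nr4a1 was -0.0216 with array weights, -0.0246 with repeated quantile normalization, -0.0468 with cyclic loess and -0.0407 to 0.0741 with 1 array left out, and Rgs16 was -0.0112 to 0.07. List medians moved by more than the spread between arrays, which included the second Het array, for 8 of 35 lists. These were the hedgehog pathway, hepatocyte identity, class II, B and T lymphocyte, stellate cell, oxidative stress, erythroid and adipose lists. The stellate cell median went from -0.07 to -0.02 without the second WT array on control diet, and the class II median from -0.14 to -0.19 under cyclic loess. Some other lists changed sign with the normalization while staying within that spread. Respiratory chain genes had a median of -0.07, and 0.03 under cyclic loess. Gluconeogenesis and insulin response genes had -0.03, and 0.06 under cyclic loess. The cause was not tested in these cases. No paired analysis was possible because the replicate numbers only name the arrays. Signal over background limits the dim genes, which the second Het array read high.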

Other observations

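Endoplasmic reticulum stress genes were higher in value in Het on control diet in 23 of 29 cases with all arrays and in 25 of 29 without the second Het array, with medians of 0.08 in both and 0 called by limma. The list mean relative to WT was -0.01, -0.04, 0.12 and 0.24 in the Het arrays, and only the third and the fourth lay above the WT arrays. Sterol synthesis genes were lower in 18 of 20 cases with all arrays and in 13 of 20 without the second Het array. Their list mean relative to WT was -0.32, -0.44, 0.10 and 0.17 in the Het arrays, all inside the WT range of -0.50 to 0.25.

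Genes with Het arrays all above or all below WT, and the same way on both diets, were counted after the data were seen. On high-fat diet alone, 434 genes were higher in Het without overlap (2.18% of all genes) and 314 lower (1.57%), against 803 (4.03%) and 418 (2.1%) on control diet. Both diets gave the same direction for 16 of 19938 genes, 8 higher and 8 lower in Het, and opposite directions for 28. Without the second Het array the counts were 16 and 45. Some overlap would arise from unrelated differences too, and its size was not computed, so no shared genotype effect is read from these counts. Of the 16 genes found with all arrays, 2 lie on chromosome 1, both higher in Het. That chromosome holds Gli2 and 1126 of the 19919 genes placed on a chromosome (5.65%). The 2 genes are Serpinb3d, a dim gene 16 measured genes before Gli2, and C4bp-ps1, 44 after it. Ctse lies on the same chromosome, 63 measured genes after Gli2. Among the 200 measured genes nearest to Gli2, 100 on each side, 7 did not overlap and were higher in Het on control diet (3.5%, below the 4.03% of all genes), and 0 were lower. Their median difference was 0.05, against 0.04 over all genes. Without the second Het array 9 were higher (4.5%, against 5.15% of all genes) and 1 lower, with a median of 0.02, and on high-fat diet 6 were higher and 3 lower, with a median of 0.00.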
